A study of Mus musculus with 8 samples.

Results

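The 10 genes described here encode transcription factors that set or hold the T cell fate: Bcl11b, Gata3, Lef1, Runx1, Runx3, Ets1, Myb, Gfi1, Tox and Zbtb7b. They were taken by gene symbol, with every probe set that the array annotation gives to one of them, and make up 10 of 18193 named genes and 28 of 45101 probe sets. The rule uses no measured value, but the set was proposed with earlier results of these data known. The data are 8 Affymetrix mouse arrays, 2 in each of 4 groups. Wild-type (WT) thymocytes and thymocytes of mice labelled IkL/L, the Ikaros-deficient genotype of the series, were depleted of lineage-positive cells and kept on OP9 DL1, a bone marrow stromal line that carries a Delta-like Notch ligand. The cultures of each genotype received either DMSO, the vehicle, or the gamma secretase inhibitor MRK-003 (GSI; 5 mM as labelled) for 16 h. All 4 groups thus shared the stromal culture with its Notch ligand, and DN3 cells, gated as Lin-CD44-CD25+, were sorted afterwards. The age and sex of the mice and whether replicates came from separate animals are not given in the sources used here, so the p-values reflect just how far these samples spread, and that spread may be technical. The labels list RNA inputs of 15 to 100 ng under 3 experiment codes without tying a code to a sample, so a difference of input or experiment between the groups could not be modelled. The 2 arrays per group limit the precision of every value.

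DN3 thymocytes are early T cell precursors that rearrange the T cell receptor beta locus and depend on Notch signals, and gamma secretase cuts the receptor to release its active intracellular domain. In the thymus Notch acts together with GATA3 and the TCF1/LEF1 factors to start the T cell programme, and BCL11B then closes off other fates. RUNX, ETS and MYB proteins share many enhancers in these cells, and GFI1 represses genes of other lineages. The later choice between CD4 and CD8 cells turns on TOX, on ThPOK, which Zbtb7b encodes, and on RUNX3.

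The GSI response of the factors was not uniform. Lef1 fell, while Runx1, Myb and Gfi1 rose, in IkL/L cells and in the average over both genotypes. These calls were not equally firm, and only those of Lef1 held in every alternative fit in both comparisons. In IkL/L cells the Runx1, Myb and Gfi1 calls were lost without some single arrays. Those of Runx1 and Myb were also lost there with the mean over probe sets. In the average the Runx1 call held, the Myb call was lost with that mean, and the Gfi1 call was lost without most single arrays. In WT cells none of the 10 passed the test on the probe set chosen for each gene. Under GSI, Lef1 was called lower and Runx1 higher in IkL/L than in WT cells, but both calls were lost with the mean over probe sets and when most single arrays were left out. The plot of levels by array shows all 10 genes on the probe set with the highest mean.

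**Figure D1:**
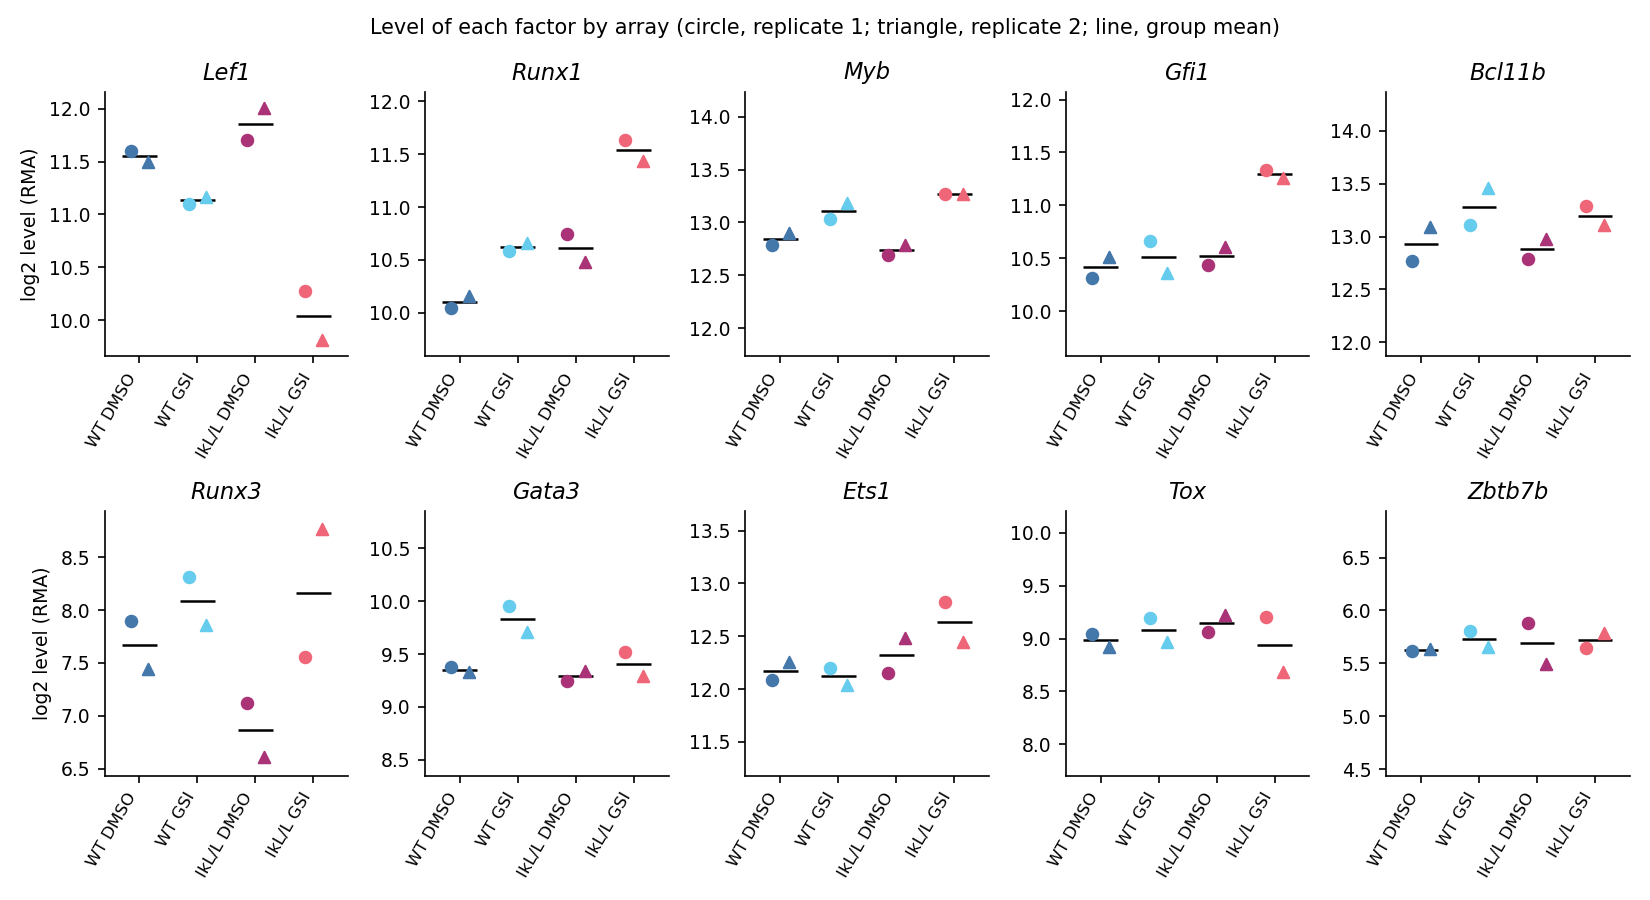
Each panel plots the log2 level of 1 gene on the 8 arrays by group (circle, replicate 1; triangle, replicate 2; line, mean of the 2 arrays), and every panel spans the same number of log2 units. Lef1 lay at 9.81 and 10.27 on the IkL/L GSI arrays against 11.70 and 12.00 for IkL/L DMSO, and Runx1 lay highest on the IkL/L GSI arrays, at 11.44 and 11.64.

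Sequences just upstream of annotated starts are given for the 4 genes with a called GSI response, since Lef1 went the opposite way from Runx1, Gfi1 and Myb. They are the 250 bases before a RefSeq transcript start on GRCm38.p6, 5′ to 3′ on the gene's strand. Capitals mark matches on either strand to 7 motif cores: TGGGAA, shared by RBPJ and Ikaros sites, TGTGGT for RUNX factors, AGATAA for zinc finger factors of the Gata3 family, CTTTGA for TCF1/LEF1, AACTGA for MYB, CAGGTG for E proteins and CCGGAA for ETS factors. The cores do not contain one another, although TGGGAA and CCGGAA share the letters GGAA. Lef1 has 4 such windows, all on the plus strand, of which the outermost, chr3:131110047-131110296, ends at the start of the gene and the innermost, chr3:131156044-131156293, lies inside it. The first Runx1 window, chr16:92826075-92826324 on the minus strand, lies before the outermost start, and the second, chr16:92697330-92697579, lies inside the gene. The outer of 2 Gfi1 windows is chr5:107725806-107726055 on the minus strand, and the single Myb window is chr10:21160985-21161234 on the minus strand. The windows not printed, 2 of Lef1 and 1 of Gfi1, held none of the cores.
Lef1 outer start: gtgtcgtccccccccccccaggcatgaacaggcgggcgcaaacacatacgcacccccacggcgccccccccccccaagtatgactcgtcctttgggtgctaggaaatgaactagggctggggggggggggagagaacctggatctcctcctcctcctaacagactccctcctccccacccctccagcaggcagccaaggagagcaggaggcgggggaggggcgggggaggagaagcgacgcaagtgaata
Lef1 inner start: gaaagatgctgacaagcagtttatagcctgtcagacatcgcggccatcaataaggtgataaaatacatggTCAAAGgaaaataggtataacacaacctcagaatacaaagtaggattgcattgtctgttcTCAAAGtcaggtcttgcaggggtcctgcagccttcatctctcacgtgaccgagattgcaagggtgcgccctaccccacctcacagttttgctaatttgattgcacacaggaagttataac
Runx1 outer start: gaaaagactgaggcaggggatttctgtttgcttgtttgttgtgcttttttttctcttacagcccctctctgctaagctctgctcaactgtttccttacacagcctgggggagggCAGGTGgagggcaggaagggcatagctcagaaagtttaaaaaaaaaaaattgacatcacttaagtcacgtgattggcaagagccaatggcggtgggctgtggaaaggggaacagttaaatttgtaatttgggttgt
Runx1 inner start: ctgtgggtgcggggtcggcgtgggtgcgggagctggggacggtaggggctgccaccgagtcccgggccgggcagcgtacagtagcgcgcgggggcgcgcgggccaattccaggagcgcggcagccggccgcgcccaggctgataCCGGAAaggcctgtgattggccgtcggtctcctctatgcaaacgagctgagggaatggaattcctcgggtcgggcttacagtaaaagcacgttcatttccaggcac
Gfi1 outer start: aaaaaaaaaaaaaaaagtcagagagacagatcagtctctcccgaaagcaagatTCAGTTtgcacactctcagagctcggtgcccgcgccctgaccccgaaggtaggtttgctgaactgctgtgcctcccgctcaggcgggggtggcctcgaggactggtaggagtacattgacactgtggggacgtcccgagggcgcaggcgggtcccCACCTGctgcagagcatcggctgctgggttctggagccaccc
Myb start: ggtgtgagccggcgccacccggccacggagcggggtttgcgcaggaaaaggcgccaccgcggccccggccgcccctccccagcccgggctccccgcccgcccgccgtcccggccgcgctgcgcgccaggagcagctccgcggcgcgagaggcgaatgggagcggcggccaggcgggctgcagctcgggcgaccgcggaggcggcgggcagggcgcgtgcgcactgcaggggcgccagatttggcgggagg

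The outer Lef1 window and the Myb window held none of the cores. The innermost Lef1 window alone of the 4 held TCAAAG, the reverse complement of the TCF1/LEF1 core, at 2 places. This core was in 13.8% of all 32851 windows of the same length. The outer Runx1 window held the E protein core, found in 17.2% of all windows, and the inner one held the ETS core, found in 12.0%. In the Gfi1 window the reverse complements of the MYB core (TCAGTT, 12.6% of all windows) and of the E protein core (CACCTG) were marked. Counted by gene over the 8 factors with a window, 4 held the E protein core in at least 1 window, beside 19.4% of all 27025 genes. The 8 factors have 15 windows, more per gene than the 32851 windows of all 27025 genes, which raises every count by gene. By window 4 of 15 held this core, beside 17.2% of all windows. The RBPJ and Ikaros core (24.1% of all genes), the RUNX core (15.9%), the TCF1/LEF1 core (15.8%) and the ETS core (13.6%) were each held by 2 factors, the MYB core (14.3%) by 1 and the GATA core (11.4%) by 0. Ets1 and Tox were not matched. A match is only a run of letters, and no binding was measured here.

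Lef1 (chr3:131110297-131224357) encodes the HMG box factor LEF1, which binds DNA at TCF/LEF sites and overlaps in function with TCF1. Its level was 11.60 and 11.50 under DMSO and 11.10 and 11.16 under GSI in WT cells, and 11.70 and 12.00 under DMSO and 10.27 and 9.81 under GSI in IkL/L cells. The GSI arrays lay below the DMSO arrays in both genotypes, and the IkL/L GSI arrays lay below all others. The change in IkL/L cells was -1.81 ± 0.18 (moderated SE) on the log2 scale, a 3.51-fold fall (limma, Benjamini-Hochberg adjusted p = 0.00103), and this call held without any single array, with adjusted p between 0.000884 and 0.014. In WT cells the difference was -0.42 ± 0.18 (limma, adjusted p = 0.244), with a 95% interval from -0.84 to 0.01. The average over both genotypes was -1.11 ± 0.13 (limma, adjusted p = 0.000803). A dimmer Lef1 probe set, designed to match several transcripts of the gene, also fell by 2.59 ± 0.35 in IkL/L (limma over 34945 probe sets, adjusted p = 0.00471), and differed by -0.66 in WT.

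The Lef1 difference in IkL/L minus that in WT was -1.40 ± 0.26 (95% interval -1.99 to -0.80), which did not pass as a difference between genotypes over all genes (limma, unadjusted p = 0.000626, adjusted p = 0.271). In a fit added after the data were seen, with each array's 3′ minus 5′ difference of the GAPDH control probe sets as a term (the GAPDH covariate), it was -1.42 and passed (limma, adjusted p = 0.0435). That difference is higher where less of the 5′ end was labelled. It is used as a measure of RNA integrity but may also vary with RNA input and labelling, which could not be tied to samples. It was 1.71 to 2.475 on the DMSO arrays and 2.20 to 3.09 on the GSI arrays, and higher with GSI in each genotype. The covariate therefore overlaps with the treatment and can take up part of its effect. Under GSI, Lef1 differed by -1.09 ± 0.18 between IkL/L and WT cells, 2.13-fold lower in IkL/L (limma, adjusted p = 0.0284). This last call was lost without any array other than replicate 1 of IkL/L GSI, with adjusted p between 0.0343 and 0.162 over the 8 fits, and it was lost with the mean over both probe sets (-1.19, limma, adjusted p = 0.0927). Under DMSO the genotypes differed by 0.30 ± 0.18 (limma, adjusted p = 0.702). The GSI response of IkL/L cells and the genotype comparison under GSI share the IkL/L GSI arrays and are not separate evidence.

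Tox (chr4:6686353-6991557) encodes the other HMG box protein of the set, which is needed to form CD4 T cells. Its 8 arrays lay between 8.69 and 9.22, and the groups overlapped apart from the DMSO arrays, where IkL/L lay just above WT. The GSI difference was 0.10 ± 0.22 in WT (95% interval -0.40 to 0.60) and -0.20 ± 0.22 in IkL/L (95% interval -0.70 to 0.30), with limma adjusted p of 0.860 and 0.605. Its 3 probe sets disagreed in sign in WT, from -0.40 to 0.53, and were all negative in IkL/L, from -0.82 to -0.04. None passed in either genotype.

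Runx1 (chr16:92601466-92826074) encodes the RUNT domain factor that acts from blood stem cells through to thymocytes and needs the subunit CBFβ to bind DNA firmly. Its level was 10.04 and 10.15 under DMSO and 10.58 and 10.66 under GSI in WT cells, and 10.74 and 10.48 under DMSO and 11.64 and 11.44 under GSI in IkL/L cells. The GSI arrays were above the DMSO arrays in each genotype, the WT GSI and IkL/L DMSO arrays overlapped, and the IkL/L GSI arrays were above all others. Runx1 rose in IkL/L by 0.93 ± 0.16, or 1.90-fold (limma, adjusted p = 0.00577), and on average by 0.73 ± 0.11 (limma, adjusted p = 0.00242). In WT the difference was 0.52 ± 0.16 (95% interval 0.17 to 0.88; limma, adjusted p = 0.0925). The IkL/L call was lost without replicate 2 of IkL/L DMSO (0.80, limma, adjusted p = 0.0603) and with the mean over the gene's 6 probe sets (0.47, limma, adjusted p = 0.0896).

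The 6 Runx1 probe sets differed among themselves. In IkL/L cells 2 of the 6 rose, by 0.93 and by 1.05 ± 0.18, while the dimmest, with levels of 5.47 to 6.03, differed by -0.38. RUNX1 transcripts start from promoters far apart in the gene, but the position of each probe set on them was not examined here. The genotype difference under GSI was 0.92 ± 0.16 (limma, adjusted p = 0.0295), and all 6 probe sets were higher in IkL/L there, by 0.04 to 1.14. That call was lost without each of the 8 arrays in turn, with adjusted p between 0.0557 and 0.223, and with the mean over the probe sets (0.64, limma, adjusted p = 0.142). Under DMSO Runx1 was 0.51 ± 0.16 higher in IkL/L, which did not pass (limma, unadjusted p = 0.0106, adjusted p = 0.223). Its GSI response differed between genotypes by 0.40 ± 0.22 (limma, adjusted p = 0.866; 95% interval -0.10 to 0.91).

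Runx3 (chr4:135120645-135177990), whose product silences Cd4 in CD8 T cells, had 7.89 and 7.44 under DMSO and 8.31 and 7.86 under GSI in WT cells, and 7.13 and 6.61 under DMSO and 7.56 and 8.76 under GSI in IkL/L cells. The 2 IkL/L GSI arrays lay furthest apart of any group, and the WT groups overlapped. The IkL/L difference was 1.30 ± 0.40 (limma, adjusted p = 0.0607) and the average 0.86 ± 0.28 (limma, adjusted p = 0.0618), and neither passed. Without replicate 1 of IkL/L GSI both passed, at 1.90 (limma, adjusted p = 0.0208) and 1.16 (limma, adjusted p = 0.0151). Without replicate 2 of IkL/L GSI they were 0.69 (limma, adjusted p = 0.303) and 0.56 (limma, adjusted p = 0.159). The IkL/L difference kept its value of 1.30 but passed with only the arrays compared, with only genes above the median level and without replicate 2 of WT GSI (limma, adjusted p = 0.0461, 0.0423 and 0.0499). It was 1.95 with the GAPDH covariate (limma, adjusted p = 0.0188). The second Runx3 probe set was dim, at 5.32 to 5.61 on all arrays, and did not pass in either genotype. Under DMSO Runx3 differed between IkL/L and WT by -0.80 ± 0.40 (limma, adjusted p = 0.589).

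Bcl11b (chr12:107910403-108004145) encodes the zinc finger factor required for T lineage commitment. On its brightest probe set the levels were 12.77 and 13.09 under DMSO and 13.11 and 13.46 under GSI in WT cells, and 12.79 and 12.97 under DMSO and 13.29 and 13.11 under GSI in IkL/L cells. The GSI arrays were above the DMSO arrays in both genotypes, by a margin smaller than the gap between replicates in each. The differences were 0.35 ± 0.15 in WT (limma, adjusted p = 0.240), 0.32 ± 0.15 in IkL/L (limma, adjusted p = 0.217) and 0.33 ± 0.11 on average (limma, adjusted p = 0.0604). On another probe set, designed to match several transcripts, the levels were 12.18, 12.44, 12.87 and 13.05 on the WT arrays, DMSO before GSI, and 12.12, 12.18, 12.82 and 12.79 on the IkL/L arrays. That probe set rose in both genotypes, by 0.65 ± 0.12 each (limma over all probe sets, adjusted p = 0.0331 in WT and 0.0116 in IkL/L). All 4 probe sets of Bcl11b had positive differences in both genotypes. The average on the brightest probe set ran from 0.25 to 0.42 over the fits without 1 array. It passed with a further quantile normalization (0.41, limma, adjusted p = 0.0342) and with only genes above the median level (0.33, limma, adjusted p = 0.0416). The mean over the 4 probe sets passed too (0.44, limma, adjusted p = 0.0351). With the GAPDH covariate the average was -0.01 and did not pass (limma, adjusted p = 0.956).

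Gata3 (chr2:9857078-9887953) encodes the zinc finger factor that T cell precursors need from the earliest stage. Its level was 9.38 and 9.33 under DMSO and 9.96 and 9.71 under GSI in WT cells, and 9.24 and 9.34 under DMSO and 9.52 and 9.29 under GSI in IkL/L cells. The WT GSI arrays were the highest, and the 2 IkL/L groups overlapped. The difference was 0.48 ± 0.18 in WT (95% interval 0.08 to 0.89; limma, adjusted p = 0.163) and 0.11 ± 0.18 in IkL/L (limma, adjusted p = 0.737). Under GSI, Gata3 was -0.43 ± 0.18 apart between IkL/L and WT (limma, adjusted p = 0.434). None of these passed in any fit that left out 1 array.

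Gfi1 (chr5:107716655-107725805) encodes a zinc finger repressor that recruits the histone demethylase LSD1. Its level was 10.31 and 10.51 under DMSO and 10.66 and 10.36 under GSI in WT cells, and 10.43 and 10.61 under DMSO and 11.33 and 11.26 under GSI in IkL/L cells. The first 3 groups overlapped, and the IkL/L GSI arrays lay above all others. Gfi1 rose in IkL/L by 0.77 ± 0.16, or 1.71-fold (limma, adjusted p = 0.0147), and on average by 0.44 ± 0.12 (limma, adjusted p = 0.0273). In WT it differed by 0.10 ± 0.16 (limma, adjusted p = 0.804; 95% interval -0.27 to 0.48). The IkL/L call was lost without any of the 4 IkL/L arrays, at 0.69 to 0.86 with adjusted p from 0.0633 to 0.132. The average call was lost without 6 of the 8 arrays, namely replicate 1 of each WT group and every IkL/L array, with adjusted p up to 0.12, and with the GAPDH covariate (0.48, limma, adjusted p = 0.0946). The response differed between genotypes by 0.67 ± 0.23 (limma, unadjusted p = 0.0192, adjusted p = 0.761), and the genotype difference under GSI was 0.78 ± 0.16 (limma, adjusted p = 0.0716).

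Zbtb7b (chr3:89377644-89393673) was dim, as its levels of 5.50 to 5.88 were close to the array medians of 5.25 to 5.33 over all probe sets. Its GSI difference was 0.11 ± 0.17 in WT and 0.03 ± 0.17 in IkL/L (limma, adjusted p = 0.807 and 0.940). At this level the arrays could not show whether the gene was in use.

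Myb (chr10:21124930-21160984) encodes the factor c-MYB, which supports survival and receptor rearrangement in thymocytes. Its level was 12.79 and 12.90 under DMSO and 13.03 and 13.19 under GSI in WT cells, and 12.70 and 12.79 under DMSO and 13.27 and 13.27 under GSI in IkL/L cells. The GSI arrays were above the DMSO arrays in both genotypes. Myb rose in IkL/L by 0.53 ± 0.09, or 1.44-fold (limma, adjusted p = 0.00704), and on average by 0.40 ± 0.07 (limma, adjusted p = 0.00364). In WT the difference was 0.26 ± 0.09 (95% interval 0.05 to 0.48; limma, adjusted p = 0.149). The probe set is of a type in which some probes may also match other sequences, and it is the only 1 of 3 that passed. The IkL/L call was lost without replicate 1 of IkL/L DMSO (0.48, limma, adjusted p = 0.0737), without replicate 2 of IkL/L GSI (0.53, limma, adjusted p = 0.0542) and with the mean over the probe sets (0.53, limma, adjusted p = 0.0903). The average call was lost with that mean (0.33, limma, adjusted p = 0.115) and with the GAPDH covariate (0.25, limma, adjusted p = 0.0878).

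Ets1 (chr9:32636241-32757820) encodes the founding ETS factor, abundant in lymphocytes. Its level was 12.08 and 12.26 under DMSO and 12.20 and 12.04 under GSI in WT cells, and 12.15 and 12.49 under DMSO and 12.82 and 12.45 under GSI in IkL/L cells. The GSI and DMSO arrays overlapped in each genotype, and under GSI the IkL/L arrays were above the WT arrays. The GSI difference was -0.05 ± 0.17 in WT and 0.32 ± 0.17 in IkL/L (limma, adjusted p = 0.915 and 0.249). Under GSI the genotype difference was 0.51 ± 0.17 (limma, unadjusted p = 0.0141, adjusted p = 0.269), and all 4 probe sets were positive there, from 0.15 to 0.67, with none passing.

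**Figure D2:**
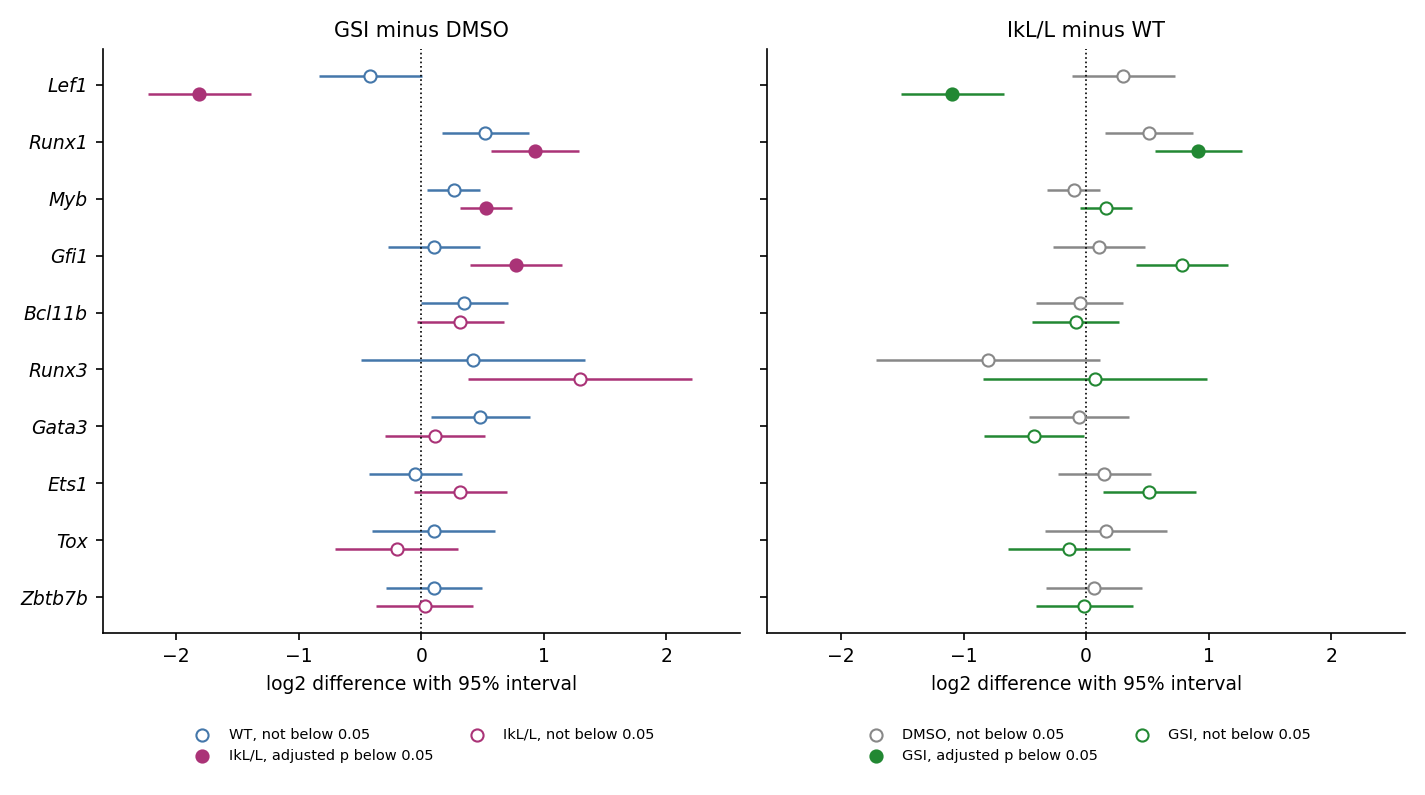
Points give the log2 difference of each gene with its 95% interval, GSI minus DMSO on the left for WT and IkL/L and IkL/L minus WT on the right under DMSO and under GSI, and filled points have an adjusted p below 0.05. On the left Lef1 stands at -1.81 in IkL/L and the filled points of Runx1, Myb and Gfi1 lie to the right of 0, at 0.93, 0.53 and 0.77.

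Counted over the set, 0 of 10 factors passed for GSI in WT (limma, adjusted p below 0.05), where 6.47% of all 18193 genes did. An unadjusted p below 0.05 was found there for 3 of 10, beside 3839 of the 18193 genes. In IkL/L 4 of 10 passed, 3 higher and 1 lower, against 16.8% of all genes (7.70% higher and 9.09% lower). For the average 4 of 10 passed, again 3 higher and 1 lower, against 23.3% (10.8% higher and 12.5% lower). The median difference of the 10 factors was 0.19 in WT, 0.32 in IkL/L and 0.32 on average, beside medians of 0.04, -0.05 and 0.00 over all genes. In both genotypes at once the 2 GSI arrays lay above the DMSO arrays for Bcl11b, Runx1 and Myb, 3 of 10 against 13.7% of all genes, and below them for Lef1, 1 of 10 against 15.6%. The comparisons in WT, in IkL/L and on average share arrays and are given side by side for that reason.

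Between genotypes under DMSO 0 of 10 passed (limma, adjusted p below 0.05, against 1.74% of all genes). An unadjusted p below 0.05 was found for 1 of 10, Runx1, beside 1854 of all 18193 genes. Under GSI 2 of 10 passed, Runx1 higher and Lef1 lower, against 1.46% of all genes (0.945% higher and 0.517% lower). For the difference between the genotypes' GSI responses 0 of 10 passed (limma, against 0.0440% of all genes). Here 2 of 10, Lef1 and Gfi1, had an unadjusted p below 0.05, beside 1089 of all 18193 genes. A call in IkL/L without a call in WT is therefore not shown to be a difference between the genotypes for any of the 10.

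**Figure D3:**
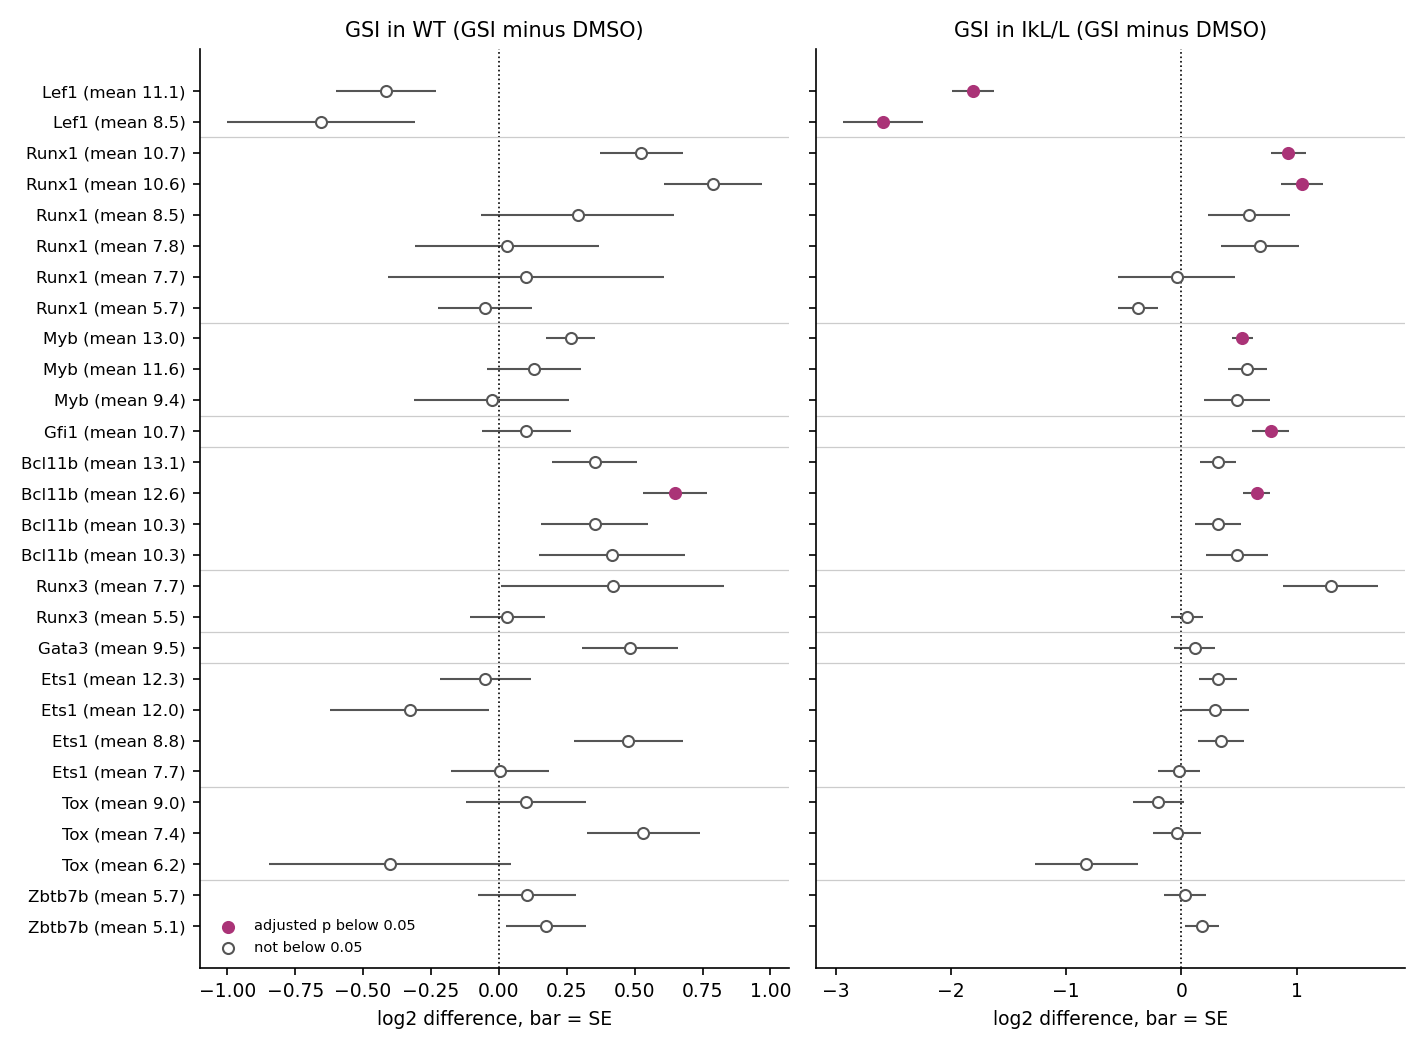
All 28 probe sets of the 10 genes are shown with their log2 difference (GSI minus DMSO, bar = SE) in WT on the left and IkL/L on the right, labelled by gene and mean level over the 8 arrays. In WT 1 probe set, of Bcl11b, had an adjusted p below 0.05, and in IkL/L 7 had, of Lef1 (2), Runx1 (2), Myb, Gfi1 and Bcl11b.

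With every probe set as a feature, 1 of 28 passed in WT (3.57% of all 34945 probe sets) and 7 of 28 in IkL/L (13.0%). The average also gave 7 of 28 (19.2%). No probe set of the factors passed between genotypes under GSI (limma, 0.778% of all probe sets), where the best for Lef1 had an adjusted p of 0.0521 and the best for Runx1 of 0.0516. The plot of all probe sets shows that those of Lef1, Bcl11b, Runx3 and Zbtb7b had one sign in both genotypes, while those of Runx1, Myb, Ets1 and Tox did not.

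Several measures moved with these results. The markers of myeloid and dendritic cells averaged 4.88 to 5.16 under DMSO and 5.32 to 5.55 under GSI in WT cells, and 5.35 to 5.37 under DMSO and 6.45 to 6.50 under GSI in IkL/L cells. Of these 16 markers 2 rose with GSI in WT and 8 in IkL/L, and 8 were higher in IkL/L under GSI. Over all genes 6.47% passed in either direction in WT, 7.70% rose in IkL/L and 0.945% were higher in IkL/L under GSI. In IkL/L the lysozyme genes Lyz1 and Lyz2 rose by 3.09 and 2.51, the calprotectin gene S100a8 by 1.71, and the MHC class II gene H2-Aa to 10.0 and 10.2, whereas the granule genes Mpo and Elane and the integrin gene Itgam lay at 2.78 to 4.91 on all 8 arrays, below the array medians. Of 8 B cell markers 3 rose with GSI in IkL/L (Cd79b, Vpreb1 and Igll1), and 5 did not pass, Cd79a and Pax5 among them at 0.05 and -0.16. In IkL/L 2 of 9 markers of earlier or later thymocytes also rose, Kit by 1.51 and Cd4 by 1.22 (median of the 9, 0.72). Both calls were lost without replicate 1 of IkL/L DMSO. Cd8a and Cd8b1 did not pass and were high on 1 IkL/L GSI array only. Cd8a was 8.43 on replicate 1 and 6.31 on replicate 2, and Cd8b1 was 7.62 and 5.91. Markers of stromal cells averaged 6.46 to 7.94 over the arrays. Both ends were in WT GSI, with 7.94 on replicate 1 and 6.46 on replicate 2, and replicate 1 was the higher in each group. Of these markers 0 of 14 passed in either GSI comparison, where such a spread between replicates widens the errors. The part of these cells and of RNA integrity in the results was not tested beyond the covariate fits given. In bulk samples fewer cells of a type and less RNA per cell cannot be told apart.

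The labels were checked against their genes. Ikzf1, which encodes Ikaros, was 11.9 and 12.2 in WT DMSO against 11.1 and 11.2 in IkL/L DMSO, a difference of -0.90 ± 0.14 (limma, adjusted p = 0.0222), and under GSI the difference was -0.43 (limma, adjusted p = 0.298). The call under DMSO was lost without some single arrays. The sources used here do not say if the IkL mutation affects the sequence under its probe set. Dtx1, a direct Notch target, fell by 4.20 with GSI in WT and by 4.55 in IkL/L (limma, adjusted p = 0.000356 and 9.48e-05). All 10 DN3 markers, Ptcra and Rag1 among them, had means above the median gene level, averaging 11.2 to 11.6 on the DMSO arrays and 10.6 to 10.8 on the GSI arrays. On average over the genotypes 3 of them fell (Dtx1, Il2ra and Ptcra) and 1 rose (Dntt), with a median difference of 0.03, and in IkL/L Rag1, Rag2 and Dntt rose. Il2ra, the gene of the CD25 protein in the sort gate, fell by 2.37 in WT and by 2.18 in IkL/L (limma, adjusted p = 0.00141 and 0.00049).

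Related lists are given for the average over the genotypes, where 10.8% of all genes rose and 12.5% fell. Partners of the factors were taken from a list of 30 genes, of which 28 were measured. On average over the genotypes 4 rose and 4 fell with GSI (limma), shares of 14.3% each, with a median of -0.11 beside 0.00 for all genes, and between 3 and 7 fell over the fits without 1 array. Cbfb, which encodes the common RUNX partner, had 11.7 and 12.1 under DMSO and 11.4 and 11.4 under GSI in WT cells, and 11.8 and 11.9 under DMSO and 11.4 and 11.4 under GSI in IkL/L cells. It fell by 0.51 ± 0.10 on average (limma, adjusted p = 0.00922) while the average of Runx1 rose. Cbfb passed in neither genotype alone (limma, adjusted p = 0.0646 in WT and 0.0724 in IkL/L). Hdac2, a histone deacetylase of the NuRD and CoREST complexes, fell by 0.79 ± 0.13. Tle4, a Groucho corepressor that binds LEF1 and RUNX proteins, rose by 0.84 ± 0.15, and Kmt2a, a histone methyltransferase, rose by 1.25 ± 0.30. Kmt2a passed in neither genotype alone (limma, adjusted p = 0.207 in WT and 0.0521 in IkL/L), and its average call was lost without some single arrays.

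Other regulators of T lineage commitment gave 7 that rose and 4 that fell of 29 measured (of 32 listed), with a median of 0.21. Without replicate 2 of IkL/L GSI only 2 rose, and over the fits without 1 array between 2 and 6 rose and between 2 and 5 fell. Hes1, the Notch target and repressor, fell by 1.91 ± 0.34, and Ikzf3, which encodes the Ikaros relative Aiolos, fell by 1.37 ± 0.23. Zeb2 rose by 1.51 ± 0.17 and Bach2, a repressor that holds lymphocytes in a resting state, rose by 1.38 ± 0.31. The Bach2 call was lost without some single arrays. In WT alone 0 of the 29 rose with GSI and 2 fell, where 6.47% of all genes passed in either direction. In IkL/L 8 rose and 3 fell, 27.6% and 10.3%, against 7.70% and 9.09% of all genes. Most of these 8 calls were lost without replicate 1 of IkL/L DMSO, and likewise without replicate 2 of IkL/L GSI. The difference between the responses passed for 0. Between genotypes under DMSO only Ikzf1 passed in this list, a call that was lost without some single arrays.

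T cell identity genes split, with 4 that rose and 6 that fell of 26 measured (of 28 listed; median 0.07), and between 3 and 7 rose over the fits without 1 array. Cd247, the CD3 zeta chain, rose by 0.79 ± 0.13 and Themis, a signalling protein of thymocyte selection, by 0.69 ± 0.10, while Cd2 fell by 2.50 ± 0.40. Of the 17 measured CD4 and CD8 stage genes (of 19 listed) 4 rose and 0 fell, with a median of 0.43, and between 2 and 5 rose over the fits without 1 array. Cd53, a tetraspanin, rose by 1.87 ± 0.16 and Gimap5, a GTPase of lymphocyte survival, by 1.07 ± 0.17. Itgae, the alpha E integrin, differed between IkL/L and WT under DMSO by -2.84 ± 0.19 (limma, adjusted p = 0.000547), lower in IkL/L.

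Regulators of progenitors and of other lineages gave 8 that rose and 0 that fell of 27, with a median of 0.15, and between 4 and 8 rose over the fits without 1 array, the fewest without replicate 2 of IkL/L DMSO. Of the 27 genes 18 had means below the median gene level. In WT alone 0 of the 27 rose with GSI, where 6.47% of all genes passed in either direction. In IkL/L 8 did, 29.6% against 7.70% of all genes, and part of these calls were lost without some single arrays. The difference between the responses passed for 0. Nfe2, an erythroid and megakaryocyte factor, rose by 1.96 ± 0.26 and Cd93, a progenitor surface protein, by 1.50 ± 0.19. Erg, an ETS factor of stem cells, rose by 1.44 ± 0.20 and under DMSO differed by -1.99 ± 0.28 between IkL/L and WT, lower in IkL/L (limma, adjusted p = 0.0146). That genotype call was lost without some single arrays.

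**Figure D4:**
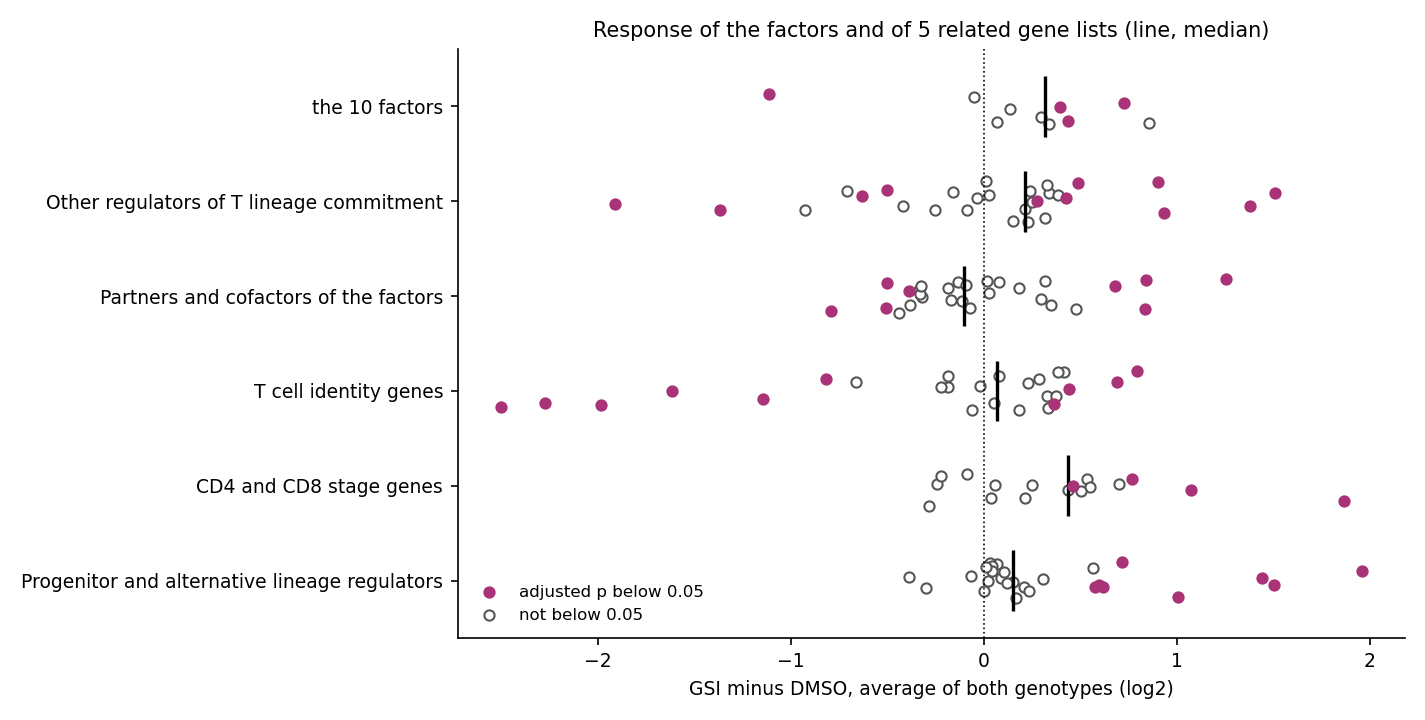
Each point is the log2 difference of 1 gene (GSI minus DMSO, average of both genotypes), with the 10 factors at the top and 5 lists of related genes under them, filled where the adjusted p was below 0.05 and with a line at the median of each list. The factors have a median of 0.32 and 4 filled points, 3 to the right of 0 and Lef1 to the left at -1.11.

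The genes with the pattern most like a factor were sought for the factors whose SD over the 8 arrays was above 0.5, by the root-mean-square difference after centring each gene on its own mean. For Lef1 they were Smn1, at 0.21 log2 units, and Pdap1, at 0.21. For Runx1 they were Oxtr, at 0.16, and Laptm4b, at 0.17. Gpr18 (0.18) and Adgrd1 (0.19) were most like Runx3.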

How the data were processed

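Biotinylated cRNA was made from total RNA in a 2-cycle labelling, using 15 to 100 ng of RNA, per the labels, for Affymetrix mouse arrays. The authors deposited log2 values made with RMA, per the submitters' processing notes (version not given in the sources used here), and these were used as deposited. Left out of the 45101 probe sets were 64 controls, 932 that name several genes and 9160 with no gene listed. For 9010 genes the brightest of several probe sets was taken (highest mean over all arrays), which gave 18193 genes, and no filter on dim genes was applied.

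Groups came from the sample titles. limma 3.58.1 (R 4.3.3) tested the differences (eBayes with a trend, two-sided) on all 8 arrays with 4 groups, 4 residual and 4.11 prior degrees of freedom, Benjamini-Hochberg over all genes, called below 0.05. Contrasts were GSI minus DMSO in WT, in IkL/L and on average, their difference, and IkL/L minus WT within each treatment. Text values are log2 differences with moderated SE. The members and the lists were chosen with earlier results of these data known. Named beside the 10 factors were Ikzf1, Dtx1, Il2ra and Ptcra, the 2 largest increases and decreases called in each list (the 2 smallest p where fewer than 2 were called), and for each factor with an SD above 0.5 the 2 most similar genes; the other named marker genes (H2-Aa, Lyz1, Kit, Rag2 and the like) were named after their values were seen. Alternatives were a replicate block, a mean over probe sets, all probe sets, genes above the median only, a further quantile normalization, median centring, no trend, only the arrays compared and leaving out each array; fits without both WT arrays numbered 1 and with GAPDH or stromal covariates were added after seeing the data. The scripts were tested on simulated log2 values with known differences and noise independent between genes. Python 3.11.15, pandas 2.3.3, numpy 2.4.6 and matplotlib 3.10.9 were used. Promoters are RefSeq sequences on GRCm38.p6. Gene coordinates are of that build.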

Additional observations from a re-analysis of the deposited data

How the results depend on the processing

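No difference of a factor that had passed the test changed sign under any alternative. For GSI in WT, 0 factors passed, against 1 with all probe sets as features (Bcl11b) and 3 with the stromal marker level as a covariate (Bcl11b, Runx1 and Myb), and 0 in each fit without 1 array. For GSI in IkL/L, 4 passed, against 2 with the mean over a gene's probe sets (Lef1 and Gfi1) and 2 to 5 without 1 array. For the average 4 passed, 3 to 5 without 1 array, and 3 with the GAPDH covariate (Lef1, Runx1 and Runx3, without Myb and Gfi1). For the difference between responses, 0 passed, against 1 with the GAPDH covariate (Lef1). For the genotype under GSI, 2 passed, against 0 with the mean over probe sets, 0 with all probe sets, 0 with only the arrays compared, 1 without both WT arrays numbered 1 (Gfi1), and 0 to 1 without 1 array. Under DMSO 0 passed. More factors passed in some fits. With the stromal covariate 6 passed in IkL/L, 6 on average and 3 for the genotype under GSI (Runx1, Gfi1 and Lef1). With the GAPDH covariate 5 passed in IkL/L, and the same 3 for the genotype under GSI. With only genes above the median level 5 passed in IkL/L and 6 on average.

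The labels number the replicates 1 and 2 in each group without saying that a number marks a shared culture or day, so no pairing is known. The deviations of same-numbered arrays from their group means correlated over all genes among WT DMSO, WT GSI and IkL/L DMSO, with r of 0.71, 0.579 and 0.562 for the 3 pairs. For the 3 pairs with IkL/L GSI r was -0.113, 0.025 and -0.01. A shared effect of the replicate number is thus visible in 3 of the 4 groups, and the main fit did not model it. With the replicate number as a block, 0 factors passed in WT, 5 in IkL/L, 6 on average, 0 for the difference between responses, 0 for the genotype under DMSO and 3 under GSI. It added Runx3 in IkL/L, Bcl11b and Runx3 on average and Gfi1 for the genotype under GSI. Over all genes the block gave 1973 calls against 1177 in WT, 24 against 8 for the difference between responses, 542 against 316 for the genotype under DMSO and 470 against 266 under GSI.

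Over the gene-level fits they ran from 1 (only the arrays compared) to 2990 (stromal covariate) for GSI in WT, 947 to 5060 in IkL/L, 2616 to 5925 on average, 0 to 64 for the difference between responses, 76 to 1063 for the genotype under DMSO and 100 to 794 under GSI.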
